A study of Mus musculus with 2 samples.

Results

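The distal microRNA (miRNA) cluster of the imprinted Dlk1-Dio3 locus was examined in embryonic mouse lung. Its members were chosen by position alone, as every listed miRNA gene on the plus strand of chromosome 12 that starts between 109700000 and 109760000 in mm10. The rule took 34 of the 1973 miRNA genes in the count tables, from Mir379 (109709060 to 109709125) to Mir3072 (109747878 to 109747960), a span of 38.9 kb. The series holds microRNA-seq, which sequences small RNA and counts miRNAs, of lung tissue from B6NCrl mouse embryos at 14.5 days, and both libraries belong to a single group. No genotype, allele or treatment is named in the labels, so there is no contrast between conditions. The labels call each sample the lung of a single pup and also give its sex as pooled, so tissue of more than 1 embryo in a library is possible. They give different collection dates for the replicates, so replicate and date cannot be told apart, and every value below from a comparison of the replicates describes these libraries only.

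In the Dlk1-Dio3 domain the protein-coding genes are expressed from the paternal chromosome, while a chain of long non-coding RNAs (Meg3, Rian and Mirg) and the miRNAs among them are expressed from the maternal one. A miRNA gene is transcribed as part of a longer RNA that folds into a hairpin. The hairpin is cut into a 5p and a 3p arm of which either can be loaded into an Argonaute protein, where the seed (bases 2 to 8 of the mature arm) pairs with target mRNAs. The distal miRNAs are known for their expression in embryo, placenta and brain. Among them miR-134 limits the growth of dendritic spines in neurons, and hairpins of miR-376, miR-379, miR-381 and miR-411 are known substrates of adenosine-to-inosine RNA editing, which counts per gene do not show.

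Replicate 1 held 5128214 counts on the strand of a miRNA gene and replicate 2 held 2332032. Levels are given as counts per 1000000 of these counts (CPM), so 1 count was worth 0.195 CPM in the deeper replicate 1 and 0.429 CPM in replicate 2. A gene at 0 counts could have held up to 3 counts, or 0.585 and 1.29 CPM. Intervals and this limit cover counting error only, since amplified reads need not be independent molecules. CPM of a miRNA gene is not divided by length, and how readily each sequence is captured was not measured, so an order of levels is an order of reads.

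The sequences of the leading members are shown first, because the counts sum both arms of a hairpin and the arms are what distinguishes the members. All mature sequences are from RefSeq (GRCm38.p6) and are printed 5′ to 3′ with the seed in capitals. RefSeq hairpins matched 31 of the 34 members, and 61 mature arms of members were found. No 3p arm of Mir487b, Mir539 or Mir376c, no 5p arm of Mir485 and no arm of Gm27379 was among them. Statements on shared seeds cover only the arms found. At the 5′ end of the cluster, Mir379 and its neighbour Mir411 carry closely related arms, and Mir1193 carries the seed of miR-379-5p again:
miR-379-5p: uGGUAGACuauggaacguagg
miR-1193-5p: uGGUAGACcggugacguaca
miR-411-5p: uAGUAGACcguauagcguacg
miR-379-3p: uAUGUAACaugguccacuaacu
miR-411-3p: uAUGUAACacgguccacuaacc
The 3p arms of Mir379 and Mir411 share the seed AUGUAAC and differ by U10C and U22C, counting positions from 1 at the 5′ end of the arm and giving the base of miR-379-3p before that of miR-411-3p. The 5p arms of Mir379 and Mir1193 share the seed GGUAGAC and diverge after it, with 10 differences over 20 compared bases.

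A further pair of members with a common seed lies far apart in the cluster, Mir494 near its start and Mir410 near its end:
miR-494-5p: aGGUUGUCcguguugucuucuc
miR-410-5p: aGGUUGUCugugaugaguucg
These arms share the seed GGUUGUC and differ at 5 of 21 compared bases. Other pairs are alike over most of the arm and differ inside the seed:
miR-300-3p: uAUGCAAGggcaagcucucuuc
miR-381-3p: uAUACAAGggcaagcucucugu
miR-154-3p: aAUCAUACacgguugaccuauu
miR-369-3p: aAUAAUACaugguugaucuuu
From miR-300-3p to miR-381-3p the differences are G4A in the seed and U21G and C22U at the 3′ end. From miR-154-3p to miR-369-3p they are C4A in the seed and C10U, C17U and A20U outside it. Of the remaining abundant members, Mir541, Mir382 and Mir134 have arms with seeds found in no other member. The same holds for the 5p arm of Mir487b, whose 3p arm was not found:
miR-487b-5p: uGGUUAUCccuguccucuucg
miR-541-5p: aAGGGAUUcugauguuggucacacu
miR-382-5p: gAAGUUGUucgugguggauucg
miR-134-5p: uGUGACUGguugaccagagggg

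Arms that begin with any base followed by GGU were frequent among the members. Of the 31 members' 5p arms in the table, 12 (38.7%) had the letters GGU at bases 2 to 4, compared with 25 of all 727 mouse 5p arms (3.44%). Besides the 5 printed above (miR-379-5p, miR-1193-5p, miR-494-5p, miR-410-5p and miR-487b-5p), they were the 5p arms of Mir1197, Mir323, Mir758, Mir667, Mir654, Mir496a and Mir412. The mean levels of these genes ran from 0 CPM for Mir654 to 6354 CPM for Mir487b, so the letters were found in members of every level. In the proximal part of the locus, 2 of 7 arms in the table had them. Every one of the 71 arms examined, including those of annotated genes of the window that the count tables do not list, occurred in 1 gene only. Stretches of 20 nt of hairpin were shared between Mir411 and Mir758, and between Mir376b, which is not listed, and both Mir376c and Mir487b. No mature arm in the table held such a stretch, but the 3p arms of Mir376c and Mir487b were not found and could not be checked.

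The cluster was abundantly represented in embryonic lung. Its members held 238158 counts in replicate 1 and 101199 in replicate 2. These are 4.64% of gene-strand miRNA counts (95% exact Clopper-Pearson interval 4.63 to 4.66) and 4.34% (4.31 to 4.37), with a mean of 4.49% ± 0.215 (SD, n = 2). The intervals of the libraries do not overlap. With multimapping and other mapped unassigned reads put into the denominator, the share was 2.60%. Of the 34 members, 29 (85.3%) reached 10 counts in each library, whereas 320 of all 1973 listed genes (16.2%) did. Nearly all of the cluster's level came from a few genes, as 10 members were above 1000 CPM and together held 90.4% and 89.1% of its counts. A further 12 lay between 100 and 1000 CPM, 7 between 10 and 100 CPM, and 5 under 10 CPM.

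**Figure D1:**
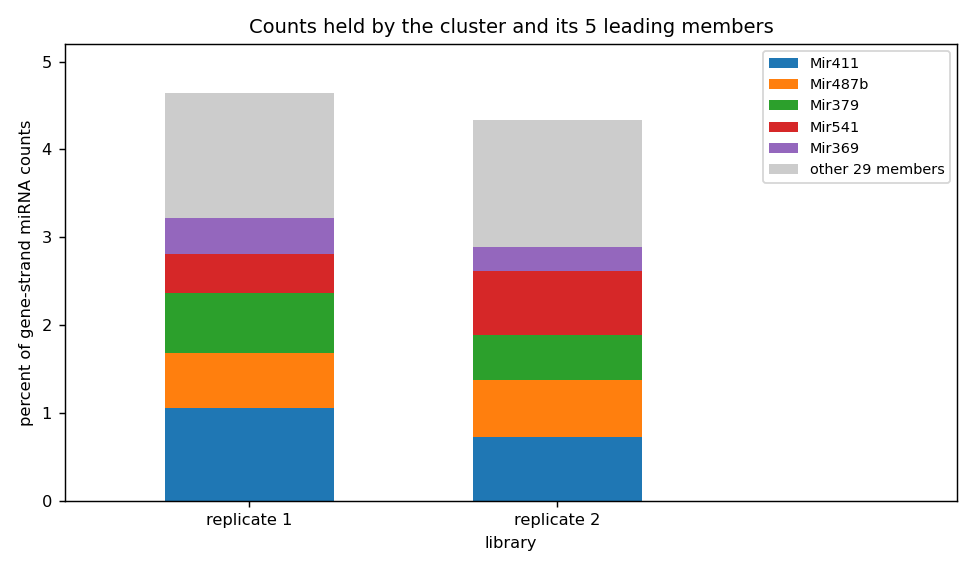
Percent of gene-strand miRNA counts held by the distal Dlk1-Dio3 cluster in each library, with the 5 members of highest mean level in colour and the other 29 members in grey. The whole bars reach 4.64% and 4.34%, and the red part (Mir541) is larger in replicate 2 while the lowest, blue part (Mir411) is larger in replicate 1.

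The most abundant members were Mir411, Mir487b, Mir379, Mir541 and Mir369, which together held 69.2% of the cluster's counts in replicate 1 and 66.7% in replicate 2 (mean 68.0% ± 1.80, SD, n = 2). With the library of replicate 1 given before that of replicate 2 here and below, Mir411 had 10573 and 7278 CPM (mean 8925 ± 2330, SD, n = 2), rank 23 of all genes by mean. Mir487b was nearly level between the libraries, at 6227 and 6481 CPM (6354 ± 179). Mir379, the gene that opens the cluster, stood at 6808 and 5069 CPM (5938 ± 1230), lower in replicate 2 like its neighbour Mir411. Mir541, which lies near the other end, went the other way, at 4508 and 7300 CPM (5904 ± 1974). Mir369 stood at 4036 and 2813 CPM (3424 ± 865).

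The order among these genes was not settled by the libraries. The mean of Mir487b lay within 1 SD of the means of Mir379 and Mir541, whose libraries lay on both sides of it, and Mir541 was level with Mir411 in replicate 2 while it was below Mir411, Mir379 and Mir487b in replicate 1. Mir382, at 2980 and 3039 CPM (3010 ± 42.3), was below Mir369 in replicate 1 and above it in replicate 2.

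Below them stood Mir381 at 2126 and 2159 CPM (2142 ± 23.6) and Mir134, the neuronal spine regulator, at 1639 and 1728 CPM (1683 ± 62.7). Mir154 had 1581 and 1525 CPM (1553 ± 40.0), and Mir1193 had 1485 and 1256 CPM (1370 ± 162). The values of Mir382, Mir381, Mir134, Mir154 and Mir1193 did not overlap between these genes, so their order was the same in both libraries. Mir300 reached 806 and 883 CPM (844 ± 54.7) and Mir494 reached 573 and 772 CPM (673 ± 141). Among all genes, 4 members were in the top 50 and 10 in the top 100 by mean CPM.

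The other members above 100 CPM were Mir323, Mir329, Mir376c, Mir543, Mir485, Mir667, Mir496a, Mir679, Mir410 and Mir377, from 441 CPM for Mir323 down to 125 CPM for Mir377. Those between 10 and 100 CPM were Mir495, Mir3072, Mir539, Mir666, Mir412, Mir668 and Mir758, from 92.8 to 28.1 CPM. Mir411 thus exceeded Mir758, the lowest member that reached 10 counts in each library, by 318-fold in mean CPM. Mir1197 had 20 and 9 counts, Mir544 11 and 5, and Gm27379 1 and 3. Mir654 and Mir453 were at 0 in both libraries, which allows levels of up to 0.585 and 1.29 CPM. The median over the 34 members was 240.0 CPM, against 0 CPM over all listed genes, most of which were not detected. Among genes with at least 10 counts in each library, the median was 345 CPM over 29 members and 195 CPM over all 320.

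**Figure D2:**
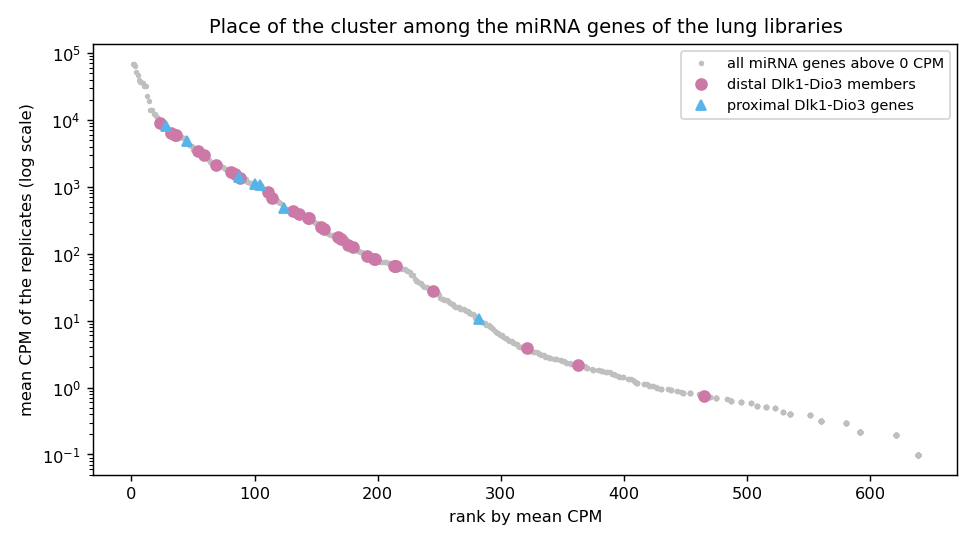
Mean CPM of the replicates (log axis) against rank for every miRNA gene above 0 CPM, with distal members as pink circles and proximal Dlk1-Dio3 genes as blue triangles. Distal members with at least 10 counts in each library lie from 8925 CPM at rank 23 down to rank 245. The few others above 0 CPM reach down to rank 465.

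Genes that share a seed were not at a common level. Mir379 and Mir411, which share the 3p seed, were both among the leading members. Mir379 and Mir1193, which share the 5p seed, differed from 5938 to 1370 CPM in the mean, with no overlap between their libraries. Mir494 stood at 673 CPM and Mir410, with the same 5p seed, at 151 and 122 CPM (mean 136). Mir496a, at 187 and 172 CPM, shares its 5p seed GGUUGCC with Mir453, which was at 0. Mir758 and Mir1197, both under 100 CPM, share the 5p seed GGUUGAC. Mir376c had 356 and 334 CPM, and its 5p arm differs from that of the unlisted Mir376b by U19G alone. Outside the locus, arms with the seed of a member's arm and a gene level of at least 10 CPM were miR-362-3p (with miR-329-3p), miR-672-5p (with miR-377-5p) and miR-1983 (with miR-412-3p), and within the proximal part miR-370-5p (with miR-1193-3p). Arms of members that were not found could share further seeds. Which arm gave the counts of a gene is not known from these tables.

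Levels changed steeply from a listed gene to the next listed one along the chromosome. Annotated genes that are not listed lie inside some of these steps, such as Mir299a and Mir380 between Mir411 and Mir1197, and were left out. Between adjacent members the median absolute difference in log2(CPM + 1) was 3.74 over 33 steps, about as much as the 3.57 over all 561 pairs of members. A gap of 20 nt separates Mir679 from Mir1193, and the former stood at 158 and 178 CPM where the latter had 1485 and 1256 CPM. Mir412 and Mir369 are also close neighbours, and Mir412 stood at 71.8 and 60.03 CPM against 4036 and 2813 CPM for Mir369. Position from the 5′ end and log2 level had a Spearman correlation of -0.11 and a Pearson correlation of -0.04 over the 34 members, given as a description because members share their libraries. Over the 31 members with a RefSeq hairpin, the Spearman correlation of log2 level was -0.27 with hairpin GC content, -0.01 with predicted folding energy and -0.02 with hairpin length.

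**Figure D3:**
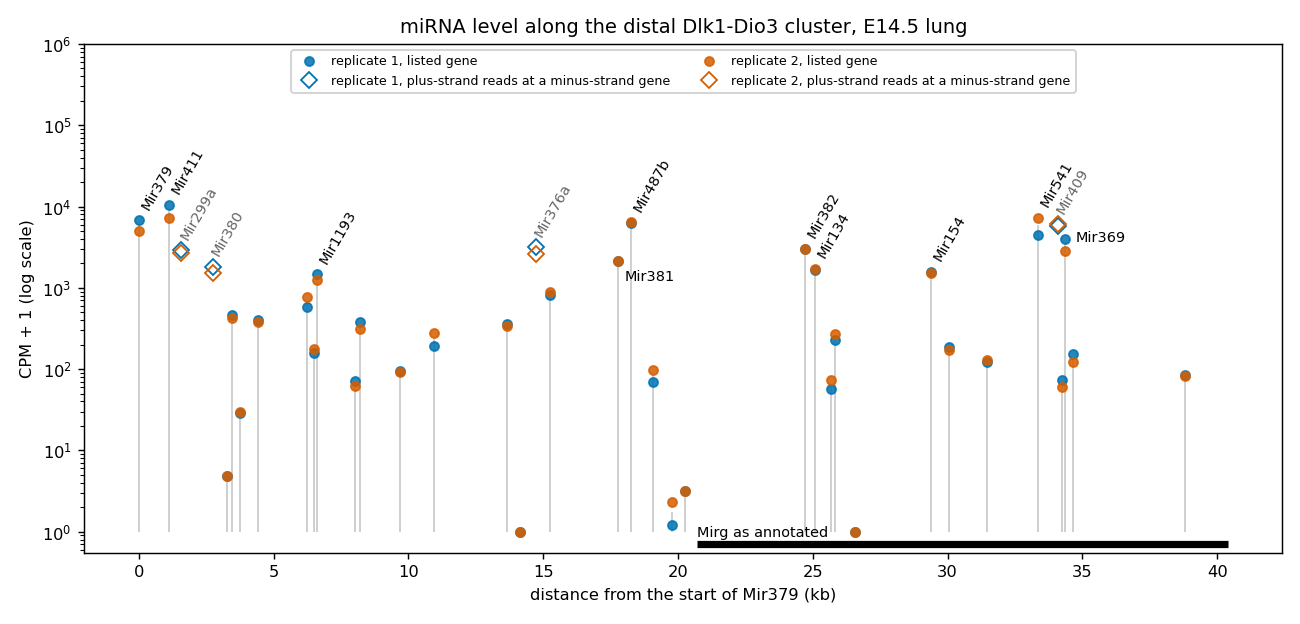
Level of each member as CPM + 1 on a log axis against its distance in kb from the start of Mir379, with replicate 1 in blue and replicate 2 in orange. Open diamonds are plus-strand reads counted at minus-strand genes, where the named plus-strand genes are annotated, and the black bar is the Mirg gene as annotated in GENCODE. High and low members alternate along the whole 38.9 kb.

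The name of the cluster covers more than the annotated Mirg transcript. In GENCODE M21, Mirg runs from 109729764 to 109749460, and 13 of the 34 members lie within it. Of these, 9 overlap an exon (Mir382, Mir134, Mir668, Mir485, Mir377, Mir412, Mir369, Mir410 and Mir3072) and 4 are intronic (Mir453, Mir154, Mir496a and Mir541). The other 21, from Mir379 to Mir544, lie before the annotated start and are intergenic in that annotation. These 21 held 66.3% of the cluster's counts in replicate 1 and 60.1% in replicate 2. RefSeq starts Mirg later, at 109734981, which leaves Mir382, Mir134, Mir668 and Mir485 before it. The division of members and counts given here therefore holds for the GENCODE annotation only. The 4 intronic members held 13.5% and 20.7%, and Mir541 led them in both libraries. The nearest listed plus-strand miRNA genes outside the window were Mir882 before it and Gm27299 after it, both at 0 counts in both libraries.

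Compared with the proximal miRNAs of the same locus, the distal cluster held more counts in sum. The proximal genes are those listed on the plus strand from 109589193, the lower-coordinate end of the minus-strand gene Rtl1, up to the window. Of the 10 proximal genes listed, 7 reached 10 counts in each library and 3 were at 0. Mir127 stood at 8067 and 8083 CPM (8075 ± 11.2) and Mir431 at 5587 and 4033 CPM (4810 ± 1099). Both are transcribed antisense to Rtl1, a retrotransposon-derived gene that they can silence. Mir434 had 1548 and 1274 CPM and Mir341 had 1195 and 1011 CPM. All of these, and Mir433 and Mir370 at means of 1053 and 477 CPM, lay above the median of the distal members, 240.0 CPM. Mir1188, at a mean of 10.5 CPM, and the 3 genes at 0 lay below it. Summed counts of the 34 distal members were 2.61 and 2.70 times those of the 10 proximal ones, which on the log2 scale is 1.41 ± 0.04 (SD, n = 2). As the lists differ in their number of genes, this compares sums and not levels per gene. The log2 difference between geometric means of CPM + 1, distal less proximal, was 0.88. Genes at 0 enter these means, 3 of the 10 proximal and 2 of the 34 distal, and lower the proximal mean more. The difference therefore does not show that detected distal genes stood higher. Mir127, Mir431, Mir434, Mir341, Mir433 and Mir370 all exceeded the distal median. No test of the ratio of sums was made, since an exact permutation test over 2 libraries cannot reach 0.05. It was 2.03 without the most abundant gene of each list, 0.79 without members that share 20 nt of hairpin and 1.14 with the proximal list extended to Mir337, and it was above 0 in each of these settings.

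The replicates were close over the members as a whole and differed in some of the most abundant ones. The log2 levels of the 34 members had a Pearson correlation of 0.996 and a Spearman correlation of 0.991 between the libraries, a description across genes. After scaling with the trimmed mean of M-values (TMM), the median log2 ratio of replicate 2 to replicate 1 was -0.08 over the 31 members tested and -0.03 over all 404 genes tested, and the median absolute log2 ratio was 0.18 against 0.23. Beyond 1.5-fold lay 3 members (9.68%), against 13.6% of all genes tested. They were Mir541, higher in replicate 2 by 0.61 on the log2 scale, and Mir411 (-0.63) and Mir369 (-0.61), lower in it. Which members passed 1.5-fold depended on the scaling. With library totals it was Mir541 alone (0.70, against -0.54 for Mir411 and -0.52 for Mir369), and with DESeq2 size factors it was Mir411 (-0.68) and Mir369 (-0.66) but not Mir541 (0.56).

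Exact two-sided binomial tests, which set the reads of the libraries against each other and not a condition, called 18 of the 31 tested members (58.1%) at a Benjamini-Hochberg adjusted p under 0.05, against 41.8% of all genes tested. Deeply counted genes pass such a test more readily, and at mean levels of 100 CPM or more it called 16 of 22 members (72.7%) and 73.8% of all genes. The share of members called was thus near that of genes of like level. Higher in replicate 2 were 4 members (12.9%, against 17.8% of all genes) and higher in replicate 1 were 14 (45.2%, against 24.0%). This split depended on the scaling, being 9 higher and 6 lower in replicate 2 with library totals, and 4 higher and 16 lower with DESeq2 size factors. TMM shifted all log2 ratios by -0.09 and DESeq2 size factors by -0.14 relative to library totals.

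Under all 3 scalings, 10 members were called in the same direction. Higher in replicate 2 were Mir541 (0.61), Mir667 (0.44, 190 and 274 CPM), Mir494 (0.34) and Mir539 (0.40, 68.8 and 96.9 CPM). Lower in it were Mir411, Mir369, Mir379 (-0.51), Mir410 (-0.40), Mir543 (-0.35, 375 and 313 CPM) and Mir1193 (-0.33). By the exact binomial test the Benjamini-Hochberg adjusted p was 7.99e-259 for Mir379, 6.60e-208 for Mir369, 3.93e-14 for Mir494 and 1.53e-08 for Mir667. Mir487b, at -0.03, did not pass (adjusted p = 0.0609 in the same exact test). In 7 members, Mir758, Mir300, Mir381, Mir487b, Mir382, Mir134 and Mir377, the sign of the ratio depended on the scaling.

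Mir541 and Mir369, which lie in the same annotated Mirg gene with Mir412 as the single listed member between them, thus differed in opposite directions between the libraries. The binomial test takes no account of spread between biological replicates. With the common dispersion of the libraries, 0.0328 over all genes (a coefficient of variation of 18.1%), edgeR's exact test called 0 members, 0 of them also having an unadjusted p under 0.05, and 1 gene of all 404, with 16 genes at an unadjusted p under 0.05. That dispersion was estimated from the difference between these same libraries, so few calls follow from its construction and the count says nothing about the stability of single members.

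**Figure D4:**
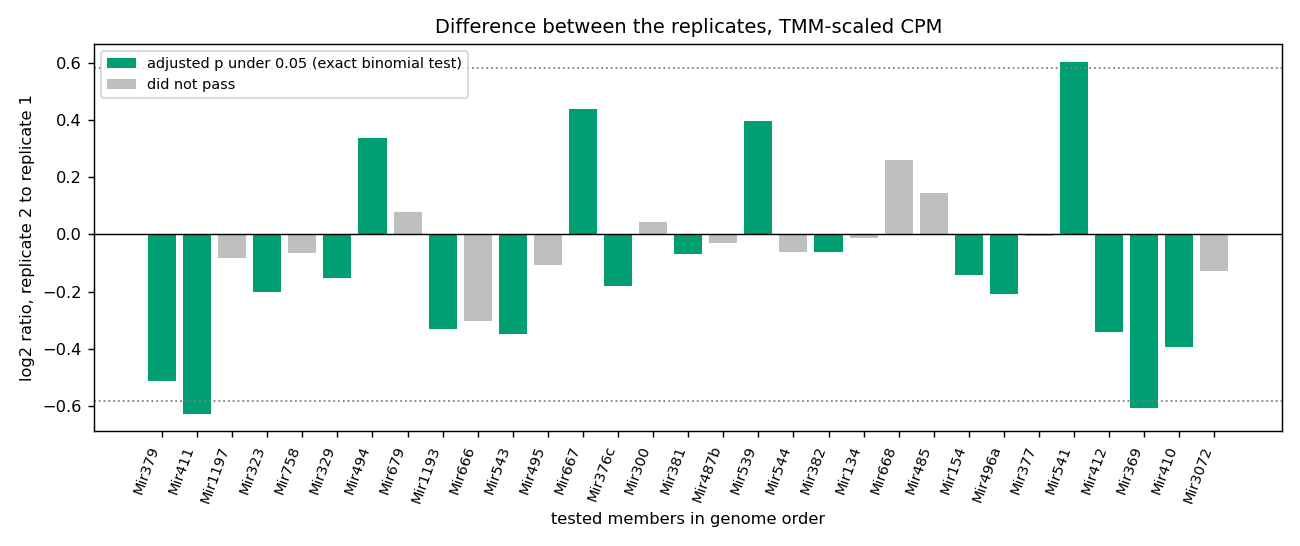
Log2 ratio (replicate 2 over replicate 1, after TMM scaling) for the 31 tested members in genome order. Green bars passed the exact binomial test, grey bars did not, and the dotted lines mark 1.5-fold. Mir541 rises above the upper line at 0.61, and Mir411 and Mir369 fall below the lower one.

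The tissue label was checked against miRNA markers, in summed CPM of replicate 1 and replicate 2. Epithelial markers (the miR-200 family) held 33294 and 33730 CPM, the endothelial Mir126a 76033 and 58438 CPM, and smooth muscle markers 79791 and 62023 CPM. Nearly all of the smooth muscle sum was Mir143, at 78321 and 60488 CPM. The other gene of that class, Mir145a, stood at 1470 and 1535 CPM. Neuronal markers, which matter here because the cluster is known from brain, summed to 114 and 110 CPM over 9 listed genes of 11, of which 3 reached 10 counts in each library. Of these, 4 were at 0, Mir9-2 and the copies Mir124a-1, Mir124a-2 and Mir124a-3, but all 4 share 20 nt of hairpin with another copy and multimapping reads were given to no gene. Markers of heart and skeletal muscle differed between the libraries, at 370 and 57.5 CPM over 9 listed genes of 10, with Mir133a-1 and Mir133a-2 at 0, each sharing sequence with another gene. The cardiac Mir208a held most of that sum, at 299 and 11.6 CPM, and without it the class summed to 71.4 and 45.9 CPM, while the skeletal muscle marker Mir206 was higher in replicate 2 (6.24 and 12.9 CPM). Multiciliated markers summed to 2258 and 1717 CPM, with Mir449a at 1477 and 735 CPM and Mir34c at 781 and 982 CPM. The neuroendocrine Mir375 held 3555 and 3261 CPM and the liver Mir122 held 22.4 and 39.5 CPM. Erythroid markers summed to 497 and 392 CPM, and white blood cell markers to 691 and 662 CPM. The part of all these markers in the differences between the replicates was not tested. In a bulk tissue, fewer cells of a type and less RNA per cell cannot be told apart.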

How the data were processed

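MicroRNA-seq of embryonic day 14.5 lung was analysed in 2 libraries. The authors deposited, for each miRNA gene, whole-number counts in 3 columns. The readme does not name these columns, and they were read from their values as counts without regard to strand (the sum of the other columns), on the gene's strand (the larger total) and on the opposite strand. Per the file headers and deposited readme, alignments were to mm10 with GENCODE M4. Aligner, counter and trimming were not given in the sources used here. The deposited counts leave multimapping reads (32.9% and 33.1% of reads) assigned to no gene, and these stayed out of library sizes. Gene-strand counts were used as CPM, with 1894 of 1973 identifiers matched to GENCODE M21. The 79 unmatched held 1 count.

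Log2 ratios used TMM scaling and a pseudocount of 1 CPM. Genes with at least 10 counts over both libraries were tested with an exact binomial test and Benjamini-Hochberg adjustment over all 404. The procedure was run on counts simulated with counting error alone and with planted changes. Such counts cannot show how it behaves where biological replicates differ. edgeR 4.0.16 and DESeq2 1.42.0 ran in R 4.3.3, scipy 1.17.1 in Python 3.11.15, and folding energies came from RNAfold 2.7.2.

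The members and lists were chosen with earlier results of these data known. Values per library are given for the 12 members of highest mean CPM, the first and last member and their neighbours outside, members of at least 100 CPM with a shared seed, the 3 highest and 3 lowest log2 ratios at 100 CPM or more, and the 4 leading proximal genes. Mir679, Mir412 and members named by a count were named after their values had been seen. Alternatives were other columns, denominators, scalings, filters, pseudocounts, member lists and a dispersion.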

Additional observations from a re-analysis of the deposited data

Results flagged for a closer look

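Reads appeared on the plus strand at 4 listed minus-strand genes of the window, in the opposite-strand column that the comparisons above do not use. A plus-strand miRNA gene that the count tables do not list is annotated in GENCODE M21 at each place. At Mir299b, where Mir299a is annotated, there were 14777 and 6211 such counts in replicate 1 and replicate 2, or 2772 ± 154 CPM (SD, n = 2), with 11 and 3 counts on the strand of Mir299b. At Gm25750, where Mir380 lies, they came to 1682 ± 198 CPM, and at Gm25252, where Mir376a lies, to 2912 ± 397 CPM. At Gm24321, where Mir409 lies, the libraries held 29563 and 14199 counts, or 5927 ± 229 CPM, which would be the fourth highest level in the cluster. The last 3 of these genes had 0 counts on their own strand in both libraries. Mature arms of the annotated genes, from RefSeq with the seed in capitals, are shown to identify what the places encode:
miR-299a-5p: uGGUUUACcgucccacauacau
miR-380-3p: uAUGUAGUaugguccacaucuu
miR-376a-3p: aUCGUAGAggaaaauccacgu
miR-409-5p: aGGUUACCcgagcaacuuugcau
miR-409-3p: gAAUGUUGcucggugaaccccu
These places held 46.6% and 44.5% of all opposite-strand counts of the libraries. No control samples exist, and the values lie above the limit that a count of 0 allows (0.585 and 1.29 CPM).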

How the results depend on the processing

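The cluster's share of counts, 4.49%, was 4.85% without the most abundant gene in the denominator, 2.60% with multimapping and other mapped unassigned reads in it, 3.60% without Mir411, 2.93% without members sharing 20 nt of hairpin and 5.74% with the plus-strand reads at 4 minus-strand genes added. The log2 ratio of distal to proximal counts, 1.41, was 2.03 without the most abundant gene of each list. It was 0.79 without members sharing 20 nt and 1.14 with the proximal list extended to Mir337. With the plus-strand reads added it was 1.78, but these reads went into the distal sum only. The log2 difference of geometric means, which include genes at 0, was 0.88. The share held by the 5 leading members, 68.0%, was 69.8% without members sharing 20 nt and 56.8% with the plus-strand reads. The plus-strand reads and the extended proximal list were chosen after seeing the data. The rank correlation of position with level, computed in each library and averaged, was -0.11. It was -0.0723 without members sharing 20 nt and -0.16 over the 29 members with 10 counts in each library. With library totals the median log2 ratio was -0.012 and 1 member passed 1.5-fold. With the common dispersion 0 members passed, which follows from its construction, since the dispersion was estimated from the same pair of libraries that is compared. The causes of the other changes were not tested.

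Leaving out each replicate gave shares of 4.34% to 4.64%, log2 ratios of 1.38 to 1.43, leading-member shares of 66.7% to 69.2%, rank correlations of -0.114 to -0.108 and 29 to 31 detected members. The number of members called ran from 15 to 20 under the other scalings, columns and count filters. No paired analysis was possible because the libraries form a single group. Depth limits the 5 members under 10 CPM, and with 2 libraries no difference between conditions and no spread beyond a single pair of values can be measured.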
